A study of Mus musculus with 7 samples.

Results

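PU.1 and MITF occupancy was compared in mouse bone marrow myeloid cells treated with RANKL for 36 h, the midpoint of osteoclast (OC) differentiation in this study. The members are the peaks of the PU.1 36 h list and of the MITF 36 h list on chromosomes 1 to 19 and X, 71879 PU.1 peaks and 3503 MITF peaks of the 239001 peaks in the 7 deposited lists. Peaks that overlapped by at least 1 bp were called co-bound, which gave 3318 co-bound sites, 68561 PU.1-only peaks and 185 MITF-only peaks. The study used ChIP-Seq, in which chromatin fragments that carry a protein are recovered with an antibody and sequenced. Libraries of both factors were made from CSF1-treated myeloid precursors (MPs), from 36 h cells and from cells with 72 h of RANKL (OCs), and an IgG library from MPs. Both 36 h libraries came from C57BLACK6 mice of 4 to 6 weeks whose flushed marrow had grown for 3 days in 50 ng per mL CSF1, with 100 ng per mL RANKL for the last step. For each precipitation 5 µg of PU.1 or MITF antibody was used. Each factor has 1 library at 36 h and neither has an IgG or input library of that time, so no difference below has a replicate check and no p-value was computed. Intervals are 95% Wilson intervals and cover counting error only.

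PU.1, encoded by Spi1, is an ETS-family transcription factor that binds sites with a GGAA core and opens chromatin in macrophages and OCs. MITF belongs to the bHLH-zipper family, whose dimers contact E-boxes such as CACGTG and CATGTG, alone or with its relatives TFE3, TFEB and TFEC, and is known for control of melanocyte, lysosome and OC genes. The proteins have been described as partners at OC genes, and the overlap of their peaks shows where both were recovered from the same cell population, not that both sat on 1 DNA molecule.

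The sequences at the centers of the peaks with the highest scores show how these sites look. Each line gives 150 bases of mm9 on the plus strand. They are centered on the PU.1 peak at co-bound and PU.1-only sites and on the MITF peak at MITF-only sites. Matches of the PU.1 core GGAAGT and of the E-boxes CACGTG and CATGTG on either strand are in capitals. The co-bound peak with the highest MITF score, nearest to the ribosomal RNA transcript NR_046233, held neither a PU.1 core nor an E-box in this window and is not shown. Its MITF peak is 824 bp wide, so the window covers only a part of it. The first 4 lines are the co-bound peaks that follow it by MITF score, named by the nearest gene of the list, at chr13:56115512-56115661, chr19:8094537-8094686, chr2:127834519-127834668 and chr16:70803907-70804056:
Macroh2a1: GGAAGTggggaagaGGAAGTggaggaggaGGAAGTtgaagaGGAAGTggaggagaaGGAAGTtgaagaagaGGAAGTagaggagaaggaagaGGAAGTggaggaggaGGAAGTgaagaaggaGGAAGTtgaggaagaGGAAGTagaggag
Slc22a27: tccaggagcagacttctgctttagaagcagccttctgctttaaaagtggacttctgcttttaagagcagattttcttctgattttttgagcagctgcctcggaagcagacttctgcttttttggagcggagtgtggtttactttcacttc
Bcl2l11: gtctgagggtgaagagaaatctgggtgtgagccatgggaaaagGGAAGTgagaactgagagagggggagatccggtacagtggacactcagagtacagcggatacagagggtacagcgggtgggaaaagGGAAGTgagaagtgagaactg
D16Ertd519e: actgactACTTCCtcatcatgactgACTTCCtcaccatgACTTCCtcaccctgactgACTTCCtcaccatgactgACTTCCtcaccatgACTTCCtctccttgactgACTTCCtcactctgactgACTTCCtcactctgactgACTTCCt
The Macroh2a1 sequence held 10 matches of GGAAGT and the D16Ertd519e sequence 9, whereas the Slc22a27 sequence held 0. None of these 4 held an E-box in the 150 bases shown. Each of their MITF peaks is wider than that, up to 696 bp at Bcl2l11, so a part of it was not covered. The next 4 are the co-bound peaks with the highest MITF score in 4 gene lists, nearest to Rbpj, Klf4, Atp6v0d2 and Fcer1g, at chr5:53828580-53828729, chr4:55754376-55754525, chr4:19821843-19821992 and chr1:173164792-173164941:
Rbpj: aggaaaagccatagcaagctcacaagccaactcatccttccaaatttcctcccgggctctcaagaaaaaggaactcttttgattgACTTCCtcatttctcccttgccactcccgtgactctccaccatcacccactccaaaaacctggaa
Klf4: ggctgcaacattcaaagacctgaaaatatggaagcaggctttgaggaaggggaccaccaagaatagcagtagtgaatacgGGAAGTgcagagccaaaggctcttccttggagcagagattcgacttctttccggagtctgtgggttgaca
Atp6v0d2: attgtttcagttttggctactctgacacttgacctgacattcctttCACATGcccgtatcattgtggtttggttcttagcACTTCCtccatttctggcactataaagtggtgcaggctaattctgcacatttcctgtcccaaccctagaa
Fcer1g: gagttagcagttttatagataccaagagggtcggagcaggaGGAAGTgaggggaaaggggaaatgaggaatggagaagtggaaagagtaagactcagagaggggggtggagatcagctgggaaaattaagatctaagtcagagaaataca
Each of them held 1 match of GGAAGT, and Atp6v0d2 alone among them held an E-box. For contrast, 4 of the 5 PU.1-only peaks with the highest PU.1 scores lie at chr4:118799947-118800096, chr4:115520174-115520323, chr3:127058271-127058420 and chr16:52470427-52470576, the first 3 in introns and the last between genes:
Slc2a1: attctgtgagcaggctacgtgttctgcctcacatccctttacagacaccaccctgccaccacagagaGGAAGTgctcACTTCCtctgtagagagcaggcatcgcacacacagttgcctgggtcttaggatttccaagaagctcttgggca
Mknk1: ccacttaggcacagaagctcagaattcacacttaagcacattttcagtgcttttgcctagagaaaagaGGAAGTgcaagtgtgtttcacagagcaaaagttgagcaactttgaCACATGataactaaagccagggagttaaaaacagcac
Ank2: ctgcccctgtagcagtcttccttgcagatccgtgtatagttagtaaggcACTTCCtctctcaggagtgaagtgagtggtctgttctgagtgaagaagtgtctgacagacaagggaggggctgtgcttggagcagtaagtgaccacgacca
Alcam: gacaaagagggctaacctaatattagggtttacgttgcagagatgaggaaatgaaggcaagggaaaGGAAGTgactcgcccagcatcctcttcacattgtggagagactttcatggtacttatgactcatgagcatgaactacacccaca
Each of these held 1 or 2 matches of GGAAGT, and Mknk1 also held an E-box. The MITF-only peaks with the highest scores near the pseudogene Pisd-ps3 are wider than these windows. The window at chr11:3042817-3042966, in a peak of 652 bp, held an E-box and no PU.1 core. The one shown, at chr11:3050064-3050213 in a peak of 1387 bp, held neither:
Pisd-ps3: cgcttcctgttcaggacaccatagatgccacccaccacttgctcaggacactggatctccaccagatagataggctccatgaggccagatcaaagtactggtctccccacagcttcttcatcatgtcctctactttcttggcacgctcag

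Nearly all MITF peaks lay on a PU.1 peak, whereas a small share of the PU.1 peaks lay on a MITF peak, in lists of very unequal size. Of the MITF peaks, 94.7% (93.9 to 95.4%) overlapped a PU.1 peak. Of the PU.1 peaks, 4.62% (4.47 to 4.77%) overlapped a MITF peak. With the PU.1 list reduced to its 3503 highest peaks, the size of the MITF list, 57.1% of either list was co-bound, so both shares depend on how many peaks each list holds. Every co-bound site paired 1 PU.1 peak with 1 MITF peak, and the centers lay 14.5 bp apart at the median, with 95.9% of the pairs within 50 bp. The 2 proteins were thus recovered at the same position within the resolution of the lists.

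Co-binding followed the strength of the PU.1 peak. The Peak Score of the lists is the number of tags, or sequenced fragments, in a peak scaled to a common library size. PU.1 peaks that were co-bound had a median score of 138.9, against 22.2 for PU.1-only peaks. In the lower 5 deciles of PU.1 peaks by score, 9 of 35940 peaks were co-bound, a share of 0.025% (0.0132 to 0.0476%). The share was 1.48% in decile 8, 5.37% in decile 9 and 38.4% (37.3 to 39.6%) in decile 10, which starts at a score of 87.2. Decile 10 thus held 2762 of the 3318 co-bound peaks, or 83.2%. Among the top 1% of PU.1 peaks, those with a score of at least 196.6, 86.2% (83.5 to 88.5%) were co-bound, and among the top 0.1% 69 of 71 were. The lowest MITF peak had 10 tags and the lowest PU.1 peak 7, and a PU.1-only peak is a site where no MITF peak was called, not one where MITF was shown to be absent.

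**Figure D1:**
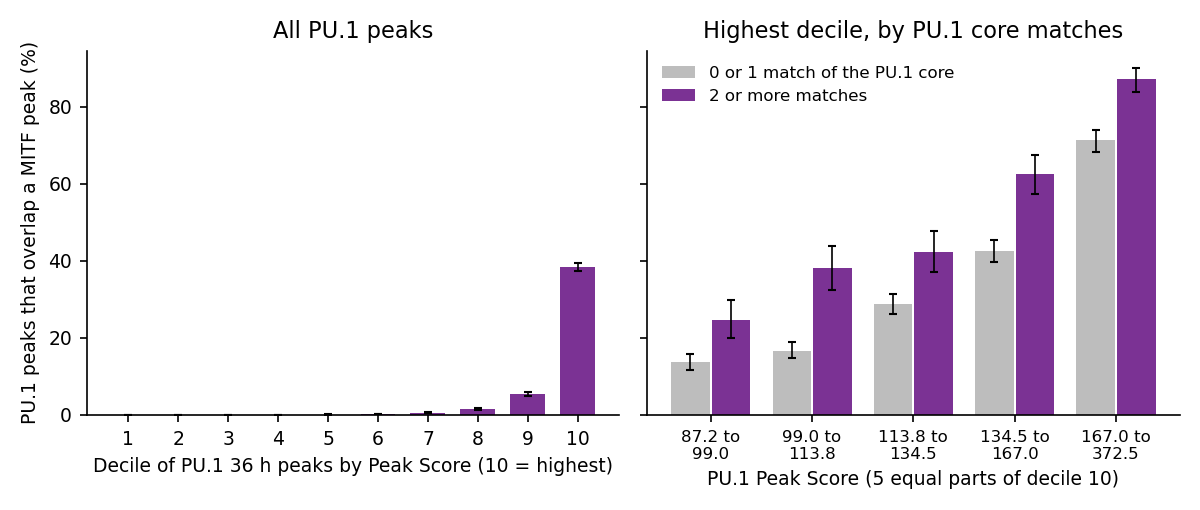
Left, share of PU.1 36 h peaks that overlap a MITF 36 h peak (y axis, %) in each decile of PU.1 Peak Score (x axis). Right, the same share in 5 equal parts of decile 10, split by the number of PU.1 core matches within 100 bp of the peak center. Bars are shares and lines are 95% Wilson intervals. The share stays under 2% up to decile 8, reaches 38.4% in decile 10, and within decile 10 is higher for peaks with at least 2 core matches in every part.

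Co-binding also went with repeated PU.1 cores within each of 5 parts of decile 10 by PU.1 score. The count of GGAAGT matches per peak was examined after the sequences above had been seen, and those peaks are among the ones counted. Within 100 bp of the center, 3 or more matches were found in 7.11% (6.29 to 8.04%) of the co-bound peaks and in 1.64% (1.54 to 1.73%) of the PU.1-only peaks. Within decile 10 the shares were 7.42% and 1.85%, so the gap was present among PU.1 peaks of high score too. Decile 10 was then split into 5 equal parts by score. In the lowest part, with scores from 87.2 to 99.0, 24.5% (19.9 to 29.9%) of the peaks with at least 2 matches were co-bound, against 13.6% (11.8 to 15.7%) of those with 0 or 1. In the highest part, with scores from 167.0 to 372.5, the shares were 87.3% (83.91 to 90.03%) and 71.3% (68.4 to 74.0%). The intervals of the 2 kinds of peak did not overlap in any of the 5 parts. Scores still vary within a part, and those of the 2 kinds were not compared there. Over decile 10 the co-bound share was 34.2% with 0 matches and 33.0% with 1, so it did not rise with the first match. It was 51.6% with 2 matches and 71.4% with 3 or more. Some sites with many cores, such as the one near Macroh2a1, are tandem repeats. The central 32 bases were unique in mm9 at 98.9% of the co-bound and 98.3% of the PU.1-only peaks. They were also unique at the Macroh2a1 site, so this count does not measure tandem repeats. The part of repeats in the co-bound shares was not tested.

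The E-boxes CACGTG and CATGTG, counted as 1 motif, were not more frequent at co-bound sites than at PU.1-only sites or in all windows of the genome. CACGTG or CATGTG, counted on both strands within 100 bp of the center, was found in 15.2% (13.98 to 16.42%) of the co-bound peaks, 17.3% (17.0 to 17.6%) of the PU.1-only peaks and 19.5% (14.4 to 25.8%) of the MITF-only peaks. All windows of 200 bp on these chromosomes held it in 17.1% of cases. The canonical form CACGTG alone was in 2.77% (2.27 to 3.39%) of the co-bound peaks and 3.44% (3.31 to 3.58%) of the PU.1-only peaks, against 1.95% of all windows, so this form was above the level of all windows in both classes. Any E-box of the form CANNTG was in 61.0% of the co-bound peaks and in 65.6% of all windows. In decile 10 of PU.1 score, 32.3% (29.8 to 34.8%) of the peaks with CACGTG or CATGTG were co-bound, against 39.9% (38.6 to 41.1%) of those without. The share was lower with the E-box in each of the 5 parts of decile 10 as well, and the intervals overlapped in 2 of these. Nor did the E-box go with the MITF score: it was in 13.9% of the MITF peaks in the lower 3 deciles of MITF score, 15.8% in the middle 4 and 14.9% in the upper 3, counting co-bound peaks only. These letters cover only part of what MITF can bind, and a missing match says nothing of MITF itself.

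PU.1 cores, in contrast, were at the center of most co-bound sites. GGAAGT was found in 77.3% (75.9 to 78.7%) of the co-bound peaks, 62.7% (62.4 to 63.1%) of the PU.1-only peaks and 16.8% (12.1 to 22.8%) of the MITF-only peaks, against 11.2% of all windows. In decile 10 the gap between co-bound and PU.1-only peaks was smaller, 79.0% (77.5 to 80.5%) against 74.8% (73.5 to 76.1%). The longer form GAGGAAGT, which contains GGAAGT, was in 36.3% of the co-bound peaks, 22.5% of the PU.1-only peaks and 1.19% of all windows. The AP-1 site TGACTCA, bound by FOS and JUN proteins, was in 8.83% (7.83 to 9.95%) of the co-bound peaks of decile 10 and in 15.01% (13.98 to 16.09%) of its PU.1-only peaks, against 3.11% of all windows. The form TTGCNNCAA, which does not contain the C/EBP site TTGCGCAA, was near the level of all windows, 1.795%, in both classes. It was in 1.51% of the co-bound and 1.62% of the PU.1-only peaks. TTGCGCAA itself was rare. It was in 0.0992% (0.0783 to 0.126%) of the PU.1-only peaks, above the 0.0161% of all windows. Of the co-bound peaks 2 held it, or 0.0603% (0.0165 to 0.22%). GC content did not separate the classes, with a median of 48% in co-bound and PU.1-only peaks. The mean number of CG dinucleotides per 200 bp was lower in co-bound peaks, 2.47 against 3.18, and 2.53 against 2.93 in decile 10. Its median was 2 in each of these groups.

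**Figure D2:**
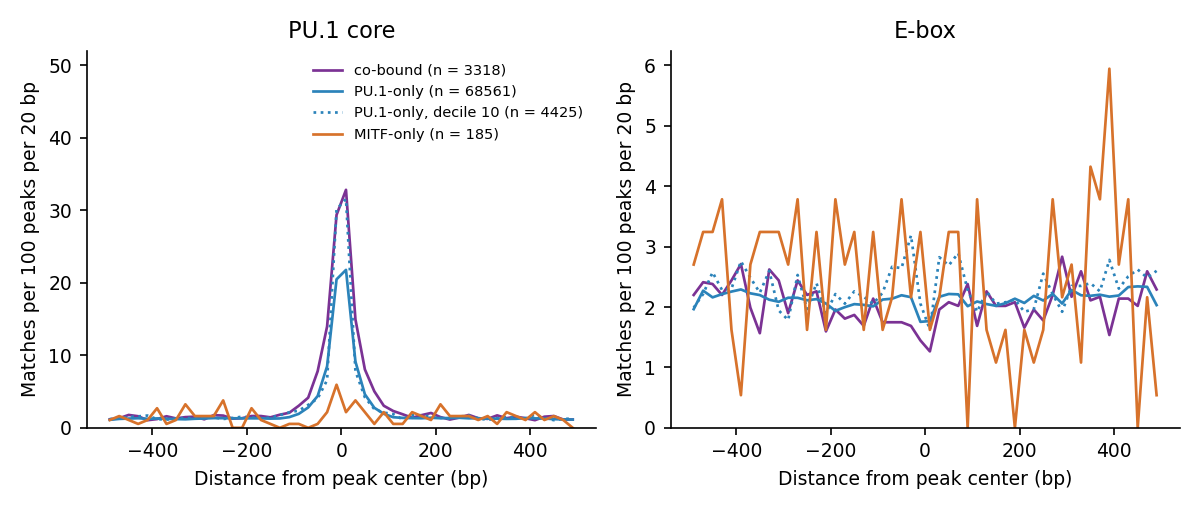
Matches of the PU.1 core (left) and of the E-box (right) per 100 peaks in bins of 20 bp (y axis) against the distance from the peak center (x axis, bp). Lines are peak classes, with the dotted line for PU.1-only peaks of decile 10. The PU.1 core peaks at the center of co-bound and PU.1-only sites, the E-box shows no peak of that size in any class, and the MITF-only lines are uneven and rest on 185 peaks. The E-box line of decile 10 PU.1-only peaks reaches 3.19 and 2.83 matches at 30 bp on either side of the center, with a dip between.

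The scores of the partners rose together. Over the 3318 pairs the rank correlation of the PU.1 and MITF scores was 0.53 (Spearman), given as a description since the sites share 2 libraries. The MITF list, however, holds 2 kinds of peak. Of its 3503 peaks, 1398 are exactly 150 bp wide, with scores from 9.7 to 46.7, and the other 2105 are 168 to 1387 bp wide, with scores from 19.5. At loci that also had a peak in the MITF OC list, where every peak is 150 bp wide, the wider 36 h peaks scored 2.25 times the OC score at the median and the 150 bp peaks 0.93 times. Whether the scores of the wider peaks are on the scale of the others was not tested, since width goes with score in this list and the wider peaks are also those with high scores at 36 h. The correlation was 0.19 over the 1306 pairs with a 150 bp MITF peak and 0.52 over the 2012 with a wider one. The 150 bp peaks span a narrow range of scores, with a median of 10.7, so these correlations cannot be set against each other. Both kinds were co-bound at a high share, 93.4% (92.0 to 94.6%) and 95.6% (94.6 to 96.4%). The PU.1 partner of a wider MITF peak had a median score of 158.2, against 113.8 for a 150 bp peak.

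**Figure D3:**
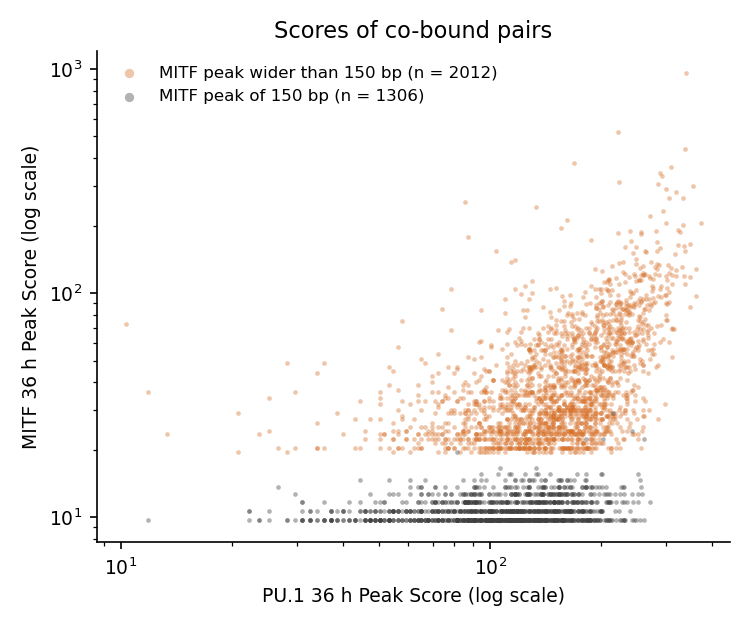
PU.1 36 h Peak Score (x axis, log scale) against MITF 36 h Peak Score (y axis, log scale) for the 3318 co-bound pairs, 1 point per pair, with 1306 pairs whose MITF peak is 150 bp wide in grey and 2012 with a wider MITF peak in orange. The wider peaks start at a MITF score of 19.5, above most of the others, which lie in a narrow band of low MITF scores.

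The pairs spanned a wide range of balance between the factors. The 3160 pairs with at least 50 tags in all, at the value of 1 tag in each list, were put in order by the ratio of the MITF to the PU.1 score. The ratio serves for this order only, which a common scale factor of either list does not change, and a different scale of the wider MITF peaks would. The 5 highest, all with a MITF peak wider than 150 bp, were nearest to Pisd (a mitochondrial phospholipid enzyme; PU.1 score 10.3, MITF score 73.0), the estrogen receptor gene Esr1 (85.7 and 255.0), the ribosomal RNA transcript NR_046233 (340.0 and 958.8), the histone variant gene Macroh2a1 (221.7 and 522.7) and Bcl2l11, which encodes the pro-apoptotic protein BIM (168.5 and 379.6). The centers of the Pisd and Esr1 peaks consist of 32 bases that occur 2 times in mm9, and the NR_046233 peak overlaps an IgG peak with a score of 73.7. At the other end, 5 pairs combined a PU.1 score of 242.4 to 261.6 with the lowest MITF score of the list, 9.7. They were nearest to Nub1, Ston2, Il1b, Hpcal1 and Susd6, of which Il1b encodes the cytokine interleukin-1 beta. All 5 had a MITF peak in MPs too, with scores of 11.4 to 19.7.

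Some of the strongest PU.1 sites had no MITF peak at 36 h. The 5 highest were nearest to Slc2a1, the glucose transporter GLUT1, with a PU.1 score of 331.1, the chaperone gene Hspa8 with 304.5, the kinase gene Mknk1 with 280.8, the ankyrin gene Ank2 with 270.5 and the adhesion molecule gene Alcam with 258.7. The Slc2a1 site had no MITF peak at any of the 3 times. Hspa8 and Mknk1 had a MITF peak in MPs, with scores of 30.1 and 19.7, and Ank2 and Alcam in both MPs and OCs, with scores of 19.4 to 24.9. At 4 of these 5 sites a MITF peak was thus called at another time.

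Co-bound peaks were less often within 1 kb of a start site than PU.1-only peaks, and more often at 1 to 10 kb, 37.0% against 33.4%. Within 1 kb of an annotated transcription start site (TSS) were 11% (9.98 to 12.1%) of the co-bound peaks, 15.6% (15.4 to 15.9%) of the PU.1-only peaks and 18.4% (13.5 to 24.6%) of the MITF-only peaks. In decile 10 of PU.1 score the difference remained, with 10.7% (9.58 to 11.9%) of the co-bound and 14.1% (13.1 to 15.2%) of the PU.1-only peaks. Read the other way, 32.1% (29.2 to 35.2%) of the decile 10 peaks near a TSS and 39.4% (38.2 to 40.6%) of those farther away were co-bound. About the same share of both classes was intronic, 49.7% and 50.4%, and the median distance to a TSS was 10765 bp for co-bound and 10431 bp for PU.1-only peaks. Co-bound peaks had a mean of 1.7 ± 1.37 other PU.1 peaks within 10 kb (SD over 3318 peaks) and PU.1-only peaks 1.54 ± 1.4 (SD over 68561 peaks). In decile 10 the means were 1.71 ± 1.35 (SD over 2762 peaks) and 1.84 ± 1.42 (SD over 4425 peaks).

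Nearly all co-bound sites carried PU.1 before and after 36 h, and most carried MITF at another time. A PU.1 peak was present in MPs at 99.5% and in OCs at 99.6% of the co-bound sites, against 77.3% and 79.7% of the PU.1-only sites. In decile 10 both classes were above 99% at both times. A MITF peak was present in MPs at 74.7% (73.2 to 76.2%) and in OCs at 70.0% (68.5 to 71.6%) of the co-bound sites, and at 84.8% at either time. MITF was also found at strong sites classed as PU.1-only at 36 h. Of the 4425 PU.1-only peaks in decile 10, 38.1% (36.6 to 39.5%) had a MITF peak in MPs and 23.2% (21.9 to 24.4%) in OCs, against 4.06% and 2.63% of all PU.1-only peaks. The IgG library had a peak at 3 co-bound and 1 PU.1-only site. With the same rule, 55.4% of the decile 10 PU.1 peaks in MPs and 41.7% in OCs were co-bound, from MITF lists of 5402 and 4435 peaks on these chromosomes whose peaks are all 150 bp wide. The lists of the 3 times may not have been called alike, and the part of calling in these differences was not tested.

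**Figure D4:**
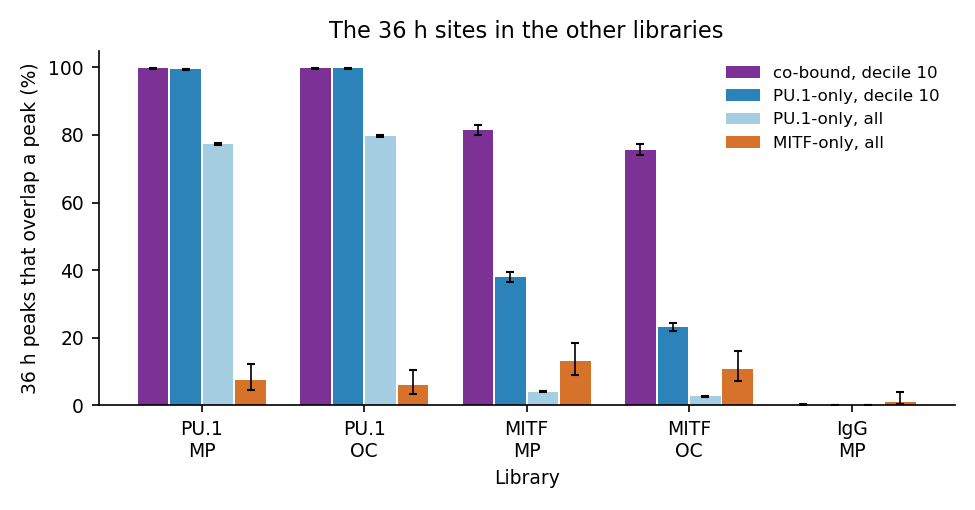
Share of 36 h sites (y axis, %) that overlap a peak of each other library (x axis) for co-bound and PU.1-only peaks of decile 10, all PU.1-only peaks and MITF-only peaks. Bars are shares and lines are 95% Wilson intervals. PU.1 in MPs and OCs covers over 99% of both decile 10 classes, MITF covers more of the co-bound ones, and MITF-only sites are under 20% in every library.

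Co-bound peaks were nearest to 2483 genes, 2160 of them protein-coding. Most of these genes, 1989, had 1 co-bound peak, and 93.6% also had at least 1 PU.1-only peak. Rreb1, Tomm20 and Cyrib had the most, 7 each, among 59, 30 and 29 PU.1 peaks. Genes with more PU.1 peaks were more often near a co-bound one: 3.37% (2.84 to 3.98%) of the protein-coding genes with 1 PU.1 peak had a co-bound peak, against 9.45% of those with 2 to 4, 25.5% (23.9 to 27.1%) of those with 5 to 9 and 53.7% (51.0 to 56.3%) of those with 10 or more. Of all 21631 protein-coding genes on these chromosomes, 65.4% were nearest to a PU.1 peak, 9.99% to a co-bound peak and 0.282% to a MITF-only peak. The lists below were counted against these levels. A nearest gene is a position and not a target, and the median number of PU.1 peaks per gene is given for the lists since the share rose with it.

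Genes listed as OC transcription factors had many PU.1 peaks and often a co-bound one. Of 35 genes listed as promoting OC differentiation, 35 had a PU.1 peak and 19, or 54.3%, a co-bound peak, with a median of 10 PU.1 peaks per gene. Over all protein-coding genes the share was 25.5% with 5 to 9 PU.1 peaks and 53.7% with 10 or more. Genes of the list had from 1 to 37 PU.1 peaks, so neither level is matched to it. How far the share goes with the number of PU.1 peaks was not tested. The highest MITF scores were at Rbpj, the nuclear effector of Notch signalling (PU.1 score 283.8, MITF score 169.4), at the AP-1 gene Jun (300.1 and 90.5) and at Klf10 (196.6 and 84.7). The nearest annotated TSS was that of another transcript at the Rbpj peak (5S_rRNA, 18842 bp away) and at the Jun peak (BC042782, 7490 bp away). The Rbpj site also had MITF peaks in MPs and OCs, with scores of 57.1 and 46.8. Nfatc1, which encodes the master regulator of OC differentiation, had 1 co-bound peak in an intron with scores of 261.6 and 84.7, and Mitf itself had 2 among 32 PU.1 peaks, the higher with a MITF score of 10.7. Spi1, which encodes PU.1, had 5 PU.1 peaks and no co-bound one. Of 16 genes listed as restraining OC differentiation, 10, or 62.5%, had a co-bound peak, with a median of 9 PU.1 peaks per gene. Membership of both lists is a label only. The role of members such as Notch2 and Limd1 in the promoting list, or Cebpa and Zfp36l1 in this one, was not tested. Klf4 (263.1 and 84.7), Runx1 (170.0 and 71.1) and Klf2 (181.8 and 70.1) had the highest MITF scores. The Klf4 peak was intergenic and lay 136429 bp from the nearest annotated TSS, that of Gm12506. Irf8 and Bcl6, known repressors of OC formation, had 3 co-bound peaks each.

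In the lists for functions of the mature OC, 29.4% to 50% of the genes had a co-bound peak. The share was 9.99% over all protein-coding genes and 25.5% over those with 5 to 9 PU.1 peaks. Neither level is matched to these lists, and the share of the resorption list was near the latter. Of 17 genes for bone resorption and acid secretion, 17 had a PU.1 peak and 5, or 29.4%, a co-bound peak, with a median of 5 PU.1 peaks per gene. They were the proton pump subunit gene Atp6v0d2 (215.8 and 63.3), the podosome scaffold gene Sh3pxd2a (202.5 and 41.9), the protease genes Mmp9 (140.4 and 34.1) and Mmp14 (124.2 and 24.3), and Scin (102.0 and 22.4), which encodes an actin-severing protein. The collagenase gene Ctsk had 7 PU.1-only peaks with a highest score of 68.0, and the phosphatase gene Acp5 had 3 with a highest score of 87.2 and neither was co-bound. Of 20 genes for surface receptors and co-stimulation, 10, or 50%, had a co-bound peak, with a median of 6.5 PU.1 peaks per gene, led by Fcer1g, the signalling chain that pairs with OSCAR (208.4 and 103.2), Tnfrsf11a, the gene of RANK (146.3 and 77.9), and Plcg2 (170.0 and 39.9). The Fcer1g peak lay 370 bp upstream of the TSS and was the only PU.1 peak nearest to that gene. Of 14 cell fusion genes, with a median of 9.5 PU.1 peaks, 5, or 35.7%, were co-bound, with the hyaluronan receptor gene Cd44 (208.4 and 102.2), Atp6v0d2 and Sirpa (260.2 and 30.2) first. Dcstamp and Ocstamp, required for fusion, had PU.1-only peaks with highest scores of 104.9 and 150.8.

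Lysosome genes were co-bound at about the share of the resorption genes, and melanocyte genes at a share nearer to that of all protein-coding genes. Of 47 lysosome and autophagy genes known as targets of the MITF and TFE family, 45 had a PU.1 peak and 14, or 29.8%, a co-bound peak, with a median of 4 PU.1 peaks per gene. The membrane protein gene Lamp1 (239.5 and 96.4) and Fnip2 (112.3 and 69.1) were among those with the highest MITF scores. Of 15 melanocyte targets of MITF, with a median of 2 PU.1 peaks, 2, or 13.3%, had a co-bound peak, Mlana (177.4 and 28.2) and Tyrp1 (112.3 and 13.6), the latter 129106 bp from the nearest TSS. The pigment enzyme gene Tyr had no PU.1 peak. In the marker lists, co-bound peaks were nearest to 8 of 16 myeloid genes, with a median of 6.5 PU.1 peaks, led by Ptprc, Ly86 and Cd33, 0 of 14 T and B lymphocyte genes, 1 of 12 osteoblast and stromal genes (Spp1) and 0 of 14 neuron genes. The median number of PU.1 peaks was 1.5 in the lymphocyte list and 1 in the stromal and neuron lists. Csf1r and Cd68 counted as lacking PU.1 peaks because the RefSeq transcripts of their peaks could not be matched to a name. By nearest annotated TSS both were co-bound, as were 9 of 16 myeloid genes, 17 of 35 genes of the promoting list, 8 of 16 of the restraining list and 1 of 14 lymphocyte genes (Cd4). By that rule the counts were 4 of 17 for resorption, 9 of 20 for receptors, 6 of 14 for cell fusion, 15 of 47 for lysosome and 2 of 15 for melanocyte genes. Of all protein-coding genes 8.99% were co-bound by it.

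**Figure D5:**
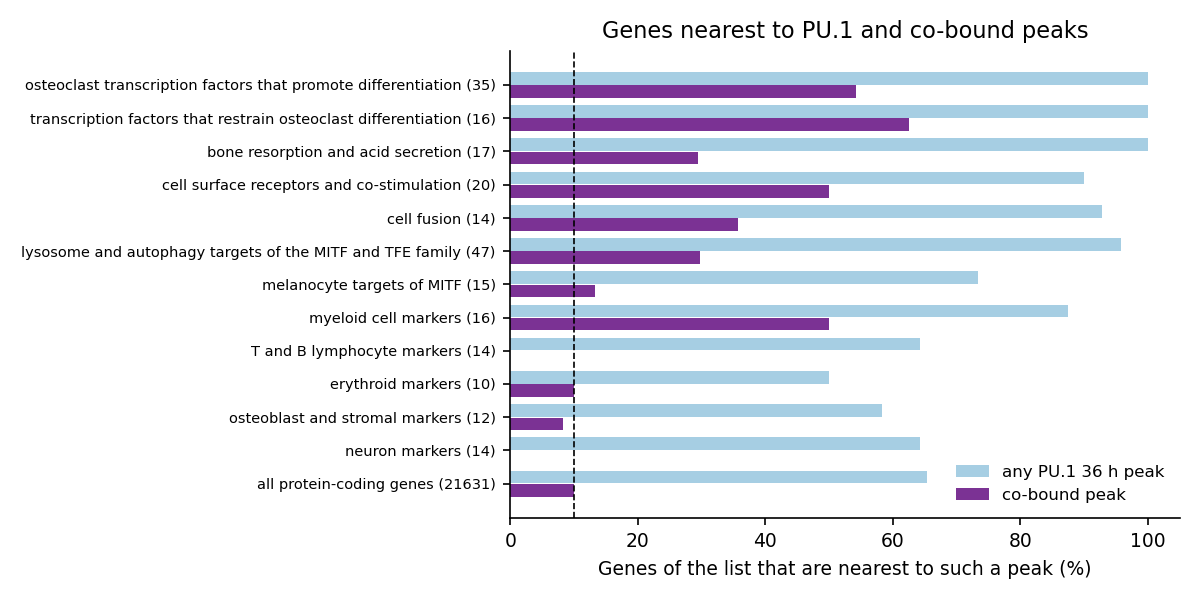
Share of the genes of each list (x axis, %) that are nearest to any PU.1 36 h peak (light bars) or to a co-bound peak (dark bars), with the number of genes in parentheses. The dashed line is the 9.99% of all protein-coding genes nearest to a co-bound peak. Lists of OC transcription factors reach 54.3% and 62.5%, and lymphocyte and neuron markers are at 0.

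The segments that the study amplified by ChIP-qPCR were co-bound mainly where PU.1 was high. The paper chose them from its own ChIP-Seq peaks. Some were PU.1 targets near a TSS, and others were transcription factor genes with PU.1 and MITF peaks. The pattern over the segments therefore depends on that choice and is no independent check of the results above. All 28 primer pairs matched mm9 at 1 place, and a peak within 250 bp was assigned to the segment. PU.1 had a 36 h peak at 27 of them, with scores from 16.3 to 285.3 and a median of 116.8, and MITF at 15. The remaining segment, at Acp5, had no PU.1 peak at 36 h. Of 19 segments with a PU.1 peak in decile 10, 14 had a MITF peak. Of the 8 with a lower PU.1 peak, 1 did, at the transferrin receptor gene Tfrc (PU.1 score 68.0, MITF score 24.3). The highest MITF scores were at Klf10 (196.6 and 84.7), Runx1 (170.0 and 71.1), Hif1a (209.9 and 59.4) and Fosl2 (285.3 and 47.7). The segments of Ctsk (44.3), Ccr1 (48.8), Src (35.5), Ppargc1b (29.6), Lif (28.1), Itgb3 (23.7) and Oscar (16.3) had these PU.1 scores and no MITF peak at 36 h or at the other times. The other 5 segments of decile 10 had no MITF peak at 36 h. Those of Myc (136.0) and Scin (88.7) had none at any of the 3 times. Prdm1 (113.8) had one in MPs with a score of 11.4, Notch2 (91.6) one in OCs with 10.3, and Nfatc1 (93.1) one in each, with 11.4 and 10.3. By ChIP-qPCR the paper reported MITF binding at transcription factor genes, Nfatc1 among them. A missing peak here thus does not show that MITF was absent.

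More than 1 in 2 of the MITF-only peaks lay in a few dense places, and the others were spread out. The 185 peaks fell in 77 windows of 100 kb, 60 of which held 1 peak. The 8 windows with 3 or more held 107, and 46 of these were in the first 100 kb of assembled sequence on chromosome 11, at 3000001 to 3100000, around Pisd-ps3 and Sfi1. Another 29 lay on chromosome 1 at 90100001 to 90200000, and 11 on chromosome X at 166400001 to 166500000. The highest score of the list, 1012.3, was at chr17:39982042-39983254, whose nearest RefSeq transcript is the ribosomal RNA NR_046233. The next were 364.0, 323.2 and 251.1 near Pisd-ps3 and 264.8 near Vmn1r238 on chromosome 18. Of the 20 highest, 19 fell in the 8 windows. The 32 central bases occurred more than once in mm9 in 11.9% (7.99 to 17.4%) of the MITF-only peaks, 1.72% of the PU.1-only peaks and 1.12% of the co-bound peaks. Each of the 8 windows also held 1 to 4 peaks of the IgG library, though 2 of the 185 peaks overlapped an IgG peak. Few MITF-only peaks recurred, with 12.97% (8.875 to 18.58%) present in MITF MPs and 10.8% (7.11 to 16.1%) in MITF OCs. The part of read placement and of background signal in the MITF-only peaks was not tested.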

How the data were processed

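PU.1 and MITF ChIP-Seq libraries were analysed from lists of peaks, 1 per library. Per the labels, the authors used CASAVA 1.8, Bowtie2 and HOMER with the mm9 build, and deposited for each peak its position, a Peak Score and the nearest RefSeq transcript. The score counts the tags of a peak after HOMER's scaling of all libraries to 1 size. Settings of peak calling are not given in the sources used here, and no reads were analysed. Scores fell on multiples of 1 value per list, 1.478 for PU.1 36 h and 0.973 for MITF 36 h, which is taken as 1 tag. Depth per library is not given in the lists; the lowest peaks held 7 and 10 tags.

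Peaks were paired by an overlap of at least 1 bp on chromosomes 1 to 19 and X. Deciles were equal ranks of PU.1 score. Shares have 95% Wilson intervals. Start sites, exons and introns are from GENCODE vM1 on mm9 (NCBIM37), at the peak center. Gene symbols are from a RefSeq table of GRCm38.p6, used for names only, and 69484 of 71879 PU.1 peaks were matched. Both strands of mm9 were scanned for motifs, up to 100 bp from each center. The center was that of the PU.1 peak at co-bound sites. It was that of the MITF peak for MITF-only peaks and where sites were sorted by MITF score. The 28 ChIP-qPCR primer pairs were matched exactly to mm9. Named peaks are the 5 highest of each class by MITF or PU.1 score, the 5 highest and lowest ratios among pairs with at least 50 tags, and the 3 genes of each list with the highest MITF score at a co-bound peak. Some genes that the rule names are not reported here. Other named genes were chosen after their values were seen. The members and lists were chosen with earlier results of these data known. Overlap, distance and interval functions were tested on simulated data. Python 3.11.15, numpy 2.4.6, scipy 1.17.1, pysam 0.24.0, samtools 1.23.1 and matplotlib 3.10.9 were used. Alternatives were other overlap rules and widths, a score threshold of 2 times the lowest, removal of IgG peaks, all chromosomes, lists of equal size, protein-coding genes only, nearest start sites for genes and a motif window of 50 bp each side.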

Additional observations from a re-analysis of the deposited data

How the results depend on the processing

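Of 65 values under other settings, 43 stayed within the 95% interval of the reported value, or within 1.5 times of a count, and 22 moved. None changed the order of the classes except where said. The share of MITF peaks co-bound by PU.1 was 93.9% with centers within 100 bp, 93.7% with an overlap of 50% of both peaks and 93.8% over all chromosomes. With the PU.1 list reduced to its 3503 highest peaks, 57.1% of either list was co-bound and the rank correlation was 0.47. With scores of at least 2 times the lowest, 4.95% of the PU.1 peaks were co-bound, GGAAGT was in 79.7% of the co-bound and 66.2% of the PU.1-only peaks, and 26.9% of the MITF-only peaks were within 1 kb of a TSS. That threshold leaves mostly the wider MITF peaks. With protein-coding genes only, the shares within 1 kb of a TSS were 9.46% (co-bound), 14.2% (PU.1-only) and 12.4% (MITF-only), so MITF-only peaks no longer stood highest. With a motif window of 50 bp each side, GGAAGT was in 71.4% of the co-bound and 56.0% of the PU.1-only peaks, and CACGTG or CATGTG in 7.05% (co-bound), 8.66% (PU.1-only) and 9.73% (MITF-only). Settings chosen after seeing the data gave 93.4% of MITF peaks co-bound with a correlation of 0.19 for MITF peaks of 150 bp, 95.6% for wider ones, and 97.7% without the 8 windows that hold 3 or more MITF-only peaks. The cause of these shifts was not tested where the setting does not show it. No paired analysis was possible because each factor has 1 library at 36 h.

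Each share rests on 1 library per factor, and the intervals leave out the spread between preparations. The smallest signal the lists can show is 10 tags for MITF and 7 for PU.1.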
